A study of Mus musculus with 11 samples.

Results

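The enzymes that write, copy and erase DNA methylation, and those that write the Polycomb histone mark, were followed as 10 genes in mouse CD8 T cells: Dnmt1, Uhrf1, Dnmt3a, Dnmt3b, Tet1, Tet2, Tet3, Ezh1, Ezh2 and Suz12. They were matched by gene symbol, in a choice made with earlier results of these data known, and are 10 of the 52636 genes in the table of counts. All 10 had enough reads to be tested. The cells came from the spleens of C57BL/6 mice and fall into 3 groups. Naive CD44lo CD8 T cells gave 3 libraries. CD45RBhi NP396+ memory CD8 T cells gave 4 libraries, and CD45RBlo NP396+ memory CD8 T cells gave another 4. NP396 is a peptide of the viral nucleoprotein, the labels name a Kb NP396 tetramer as the stain, and CD45RB is a splice form of the phosphatase CD45. For memory cells the labels state infection with 200000 pfu of LCMV Armstrong into the peritoneum, a virus strain that is cleared after an acute infection, and sorting on days 42 to 45, in week 6. The naive libraries carry the same text and a time entry of 6 to 8 weeks whose meaning is not stated, so the age of the mice in each group is not known here. Nothing in the labels says whether replicates are separate animals. The p-values here therefore speak only of the scatter among these libraries, some of which may be technical.

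DNA methylation at CpG sites is placed on unmethylated DNA mainly by Dnmt3a and Dnmt3b and is copied to the new strand after replication by Dnmt1, which Uhrf1 brings to hemimethylated sites. The Tet dioxygenases oxidise methylcytosine, which starts its removal. Polycomb repressive complex 2 (PRC2) methylates histone H3 on lysine 27 through Ezh1 or Ezh2, and both need Suz12 to be active. In CD8 T cells these enzymes are known to act when naive cells become effector and memory cells: Dnmt3a and Ezh2 repress genes of alternative fates, and Tet2 restrains memory formation. Ezh2, Dnmt1 and Uhrf1 are known to be higher in dividing cells, and Ezh1 is known as the form of resting cells.

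Libraries held 18.0 to 23.2 M counts. Levels are in CPM, reads scaled to a common total with TMM factors, and a count of 0 allows up to 3 counts, or 0.130 to 0.166 CPM in 1 library (counting error only). Summed levels of CD8 T cell markers were 7017 to 7483 CPM in naive, 7637 to 8567 in CD45RBhi and 6994 to 8376 in CD45RBlo libraries. Of these 7 markers, 4 were higher and 1 lower in CD45RBhi than in naive cells, and 1 higher and 1 lower in CD45RBlo cells. The lower one was Cd8a (1323, 986 and 980 CPM, adjusted p = 0.00082 and 0.000681). Cd44, by which the naive cells were sorted as low, rose (14.6, 256 and 220 CPM). Summed markers of B, myeloid, erythroid and platelet cells were higher in naive libraries. B cell markers summed to 1211 to 1379 CPM in naive, 211 to 502 in CD45RBhi and 198 to 445 in CD45RBlo libraries. Pax5, too low to be tested, was at 0.148 to 0.259 CPM in naive libraries and at 0 in every memory library. Those naive levels lie near the limit given above for a count of 0. Ighm made most of the B cell sum, with a mean of 1159 CPM over naive libraries and of 303 and 261 CPM over the CD45RBhi and CD45RBlo ones. Of 11 tested B cell markers 9 were lower in CD45RBhi and 10 in CD45RBlo cells, while Cd22 was higher in both (1.88, 7.93 and 13.9 CPM, adjusted p = 0.000415 and 2.98e-05). Myeloid markers summed to 31.3 to 54.4, 6.16 to 13.5 and 9.21 to 19.9 CPM, and erythroid and platelet markers to 241 to 528, 0.434 to 2.20 and 0.484 to 25.3 CPM, in the same order. Of 7 tested myeloid markers 4 were lower in each memory group and Itgam was higher (0.727, 5.33 and 6.58 CPM, adjusted p = 0.000652 and 0.000299). The sum of 4 CD4 and regulatory T cell markers was 3.33 to 4.53, 7.55 to 12.8 and 9.69 to 14.7 CPM. Its rise was in Zbtb7b (0.102, 7.86 and 8.59 CPM), while Foxp3 was called lower (1.09, 0 and 0.0236 CPM, adjusted p = 0.000167 and 0.000386) and Cd4 averaged 0.224, 0.0373 and 0.0971 CPM. These shifts accompany every comparison with naive cells below, and their part in the results was not tested. In bulk RNA, fewer cells of a type and less RNA per cell cannot be told apart.

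Against naive cells, the memory groups had less Tet1, Tet3, Dnmt3a, Dnmt3b and Tet2 RNA and more Ezh2 RNA, and in CD45RBlo cells also more Dnmt1 RNA. Of the 10 genes, 1 was higher and 5 were lower in CD45RBhi than in naive cells (edgeR's quasi-likelihood test, Benjamini-Hochberg adjusted p under 0.05). Among all 13735 genes tested 41.5% were called, 22.3% higher and 19.1% lower. In CD45RBlo cells 2 were higher and 5 lower, against 42.2% of all genes called, 22.4% higher and 19.8% lower. The median log2 fold change of the 10 was -0.34 and -0.36, and that of all genes was -0.01 in both comparisons. Both comparisons share the same 3 naive libraries. CPM ranges did not overlap with the naive range for 6 of the 10 genes in CD45RBhi cells, where 47.4% of all genes were so, and for 7 in CD45RBlo cells, where 49.6% were.

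**Figure D1:**
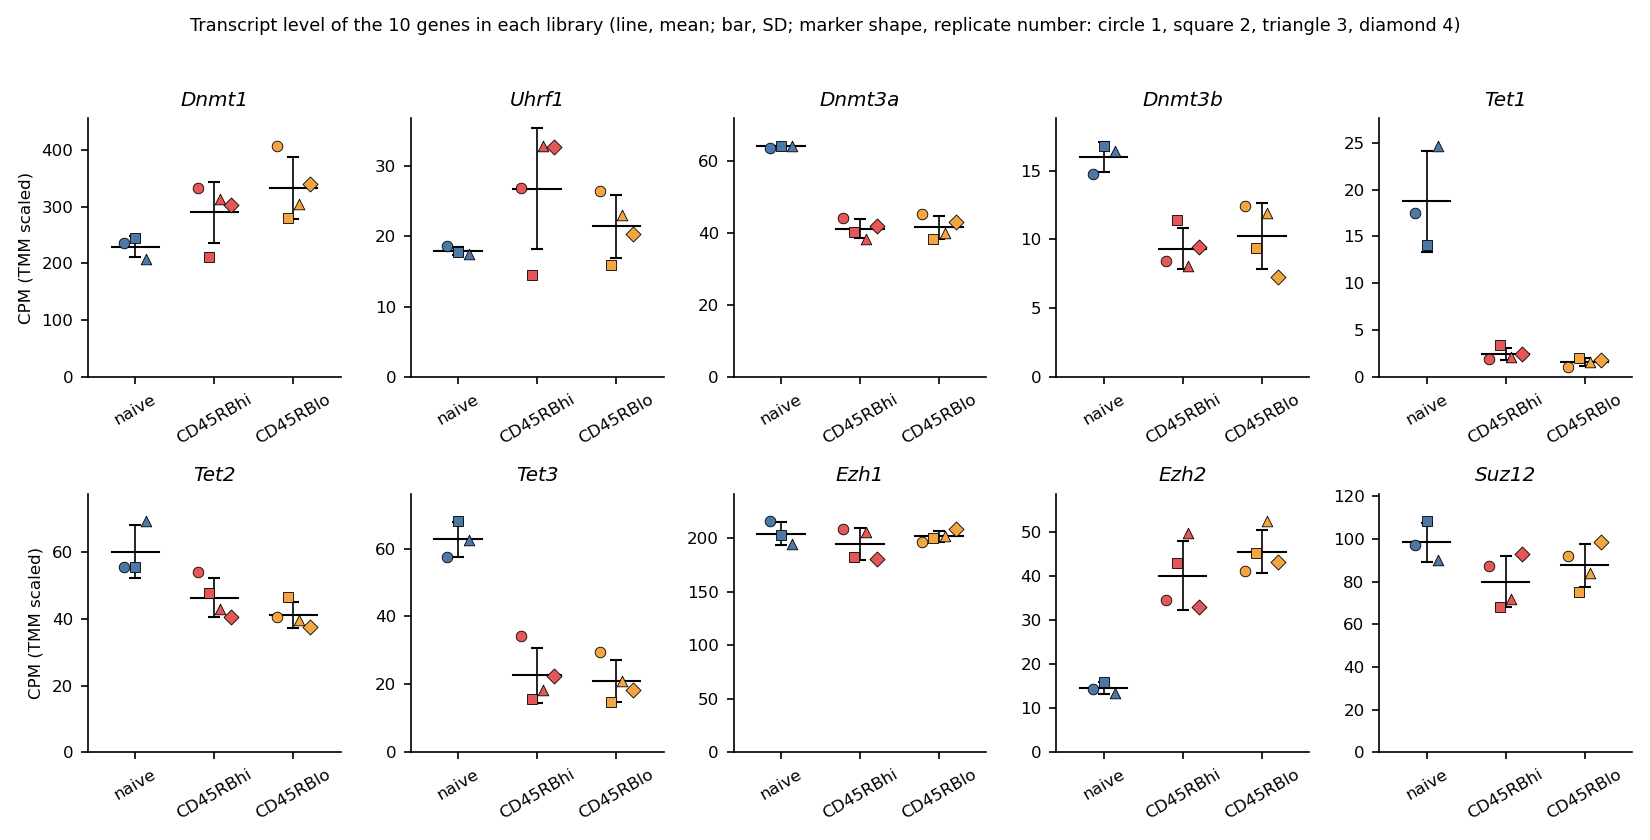
Transcript level of each of the 10 genes in CPM (vertical axis, from 0) by group (horizontal axis). Each point is 1 library, its shape gives the replicate number, the line is the mean and the bar the SD. Ezh2 lies at 13.4 to 16.0 CPM in naive and at 33.0 to 52.3 CPM in memory libraries, and Tet1 at 14.1 to 24.7 CPM in naive and at 1.02 to 3.43 CPM in memory libraries.

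The genes that copy methylation were higher in some memory libraries than in naive ones and varied between replicates. Dnmt1, the maintenance methyltransferase (ENSMUSG00000004099, GRCm38 chr9:20907209-20959888, minus strand), was at 235, 244 and 208 CPM in naive libraries 1 to 3. It was at 332, 211, 312 and 303 CPM in CD45RBhi libraries 1 to 4 and at 407, 279.5, 305 and 339 CPM in CD45RBlo libraries 1 to 4. Every CD45RBlo library lay above every naive one, while CD45RBhi library 2 fell inside the naive range. Dnmt1 rose 1.45-fold in CD45RBlo cells (log2 fold change 0.54 ± 0.156 SE, adjusted p = 0.0144). The difference for CD45RBhi cells, 0.34 ± 0.155, did not pass (adjusted p = 0.101). It passed without CD45RBhi library 2 (0.46, adjusted p = 0.00876), and the CD45RBlo call was lost without naive library 3 (0.47, adjusted p = 0.0659).

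Uhrf1, the reader that recruits Dnmt1 (ENSMUSG00000001228, chr17:56303321-56323486, plus strand), was steady in naive libraries at 18.6, 17.8 and 17.5 CPM. It spread widely in memory, at 26.8, 14.5, 32.9 and 32.7 CPM in CD45RBhi and 26.5, 15.9, 23.1 and 20.3 CPM in CD45RBlo libraries 1 to 4. Library 2 was the lowest of both memory groups, as it was for Dnmt1, and its Uhrf1 level lay below all naive libraries. The log2 fold changes from naive were 0.57 ± 0.247 (adjusted p = 0.0819) in CD45RBhi and 0.25 ± 0.247 (adjusted p = 0.443) in CD45RBlo cells. Neither passed, and without CD45RBhi library 2 the CD45RBhi difference passed at 0.78 (adjusted p = 0.00244).

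Both enzymes of new methylation fell. Dnmt3a (ENSMUSG00000020661, chr12:3806007-3914443, plus strand) stood at 63.7, 64.2 and 64.2 CPM in the naive libraries. It was at 44.3, 40.2, 38.3 and 42.0 CPM in CD45RBhi and at 45.4, 38.2, 39.9 and 43.0 CPM in CD45RBlo libraries. No memory library came near the naive ones, and the memory groups lay on top of each other. Dnmt3a was 1.55-fold lower in CD45RBhi cells (log2 fold change -0.64 ± 0.0908, adjusted p = 0.000111) and 1.54-fold lower in CD45RBlo cells (-0.62 ± 0.0908, adjusted p = 0.000124). It was called in each of 12 alternative settings in both comparisons.

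Dnmt3b, its close relative (ENSMUSG00000027478, chr2:153649450-153687730, plus strand), was at 14.8, 16.8 and 16.4 CPM in naive libraries. It was at 8.43, 11.4, 8.06 and 9.42 CPM in CD45RBhi and at 12.4, 9.40, 11.9 and 7.28 CPM in CD45RBlo libraries. All memory libraries were below all naive ones, with more scatter than Dnmt3a. The fold change was 1.71-fold lower in CD45RBhi (log2 -0.78 ± 0.190, adjusted p = 0.00533) and 1.56-fold lower in CD45RBlo cells (-0.64 ± 0.190, adjusted p = 0.0153). The CD45RBlo call was lost without naive library 2 (-0.61, adjusted p = 0.0546). Dnmt3b made up 44.9% ± 1.62 of the Dnmt3a and Dnmt3b level per kilobase of exon in naive cells, 42.3% ± 4.16 in CD45RBhi and 44.1% ± 6.04 in CD45RBlo cells (SD). Those shares overlapped, so the pair fell without a visible change of makeup. The size of the share depends on the length used. With the longest transcript, Dnmt3a and Dnmt3b averaged 6.61 and 3.70 CPM per kilobase in naive cells.

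The Tet genes fell to different degrees. Tet1 (ENSMUSG00000047146, chr10:62804570-62908996, minus strand) showed the widest change of the 10: 17.4, 14.1 and 24.7 CPM in naive libraries became 1.96, 3.43, 2.09 and 2.41 CPM in CD45RBhi libraries. In CD45RBlo libraries it was at 1.02, 2.03, 1.60 and 1.80 CPM. The lowest naive library, with 271 counts, was far above the highest memory library, with 79 counts. Tet1 was 7.54-fold lower in CD45RBhi (log2 -2.91 ± 0.270, adjusted p = 2.4e-06) and 11.5-fold lower in CD45RBlo cells (-3.52 ± 0.281, adjusted p = 5.41e-07).

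Tet3 (ENSMUSG00000034832, chr6:83362373-83459084, minus strand) was at 57.5, 68.0 and 62.5 CPM in naive libraries. It was at 34.2, 15.8, 18.4 and 22.5 CPM in CD45RBhi and at 29.5, 14.8, 21.1 and 18.4 CPM in CD45RBlo libraries. Library 1 was the highest and library 2 the lowest of each memory group, and none reached the naive range. Tet3 fell 2.76-fold in CD45RBhi (log2 -1.47 ± 0.254, adjusted p = 0.000512) and 3.00-fold in CD45RBlo cells (-1.58 ± 0.255, adjusted p = 0.000274).

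Tet2, the family member that is often mutated in blood cancers (ENSMUSG00000040943, chr3:133463679-133545139, minus strand), changed least of the 3. Its naive levels were 55.4, 55.5 and 69.2 CPM. Its memory levels were 54.0, 47.7, 42.9 and 40.6 CPM in CD45RBhi and 40.6, 46.6, 39.6 and 37.5 CPM in CD45RBlo libraries. CD45RBhi library 1 lay just under the naive range, while the CD45RBlo libraries were well clear of it. Tet2 was 1.46-fold lower in CD45RBlo cells (log2 -0.55 ± 0.126, adjusted p = 0.00346), a call kept in 12 of 12 settings. In CD45RBhi cells it was 1.30-fold lower (-0.37 ± 0.126, adjusted p = 0.0299). That call was lost without naive library 3 (-0.26, adjusted p = 0.16), without CD45RBhi library 3 (-0.34, adjusted p = 0.0757) and without CD45RBhi library 4 (-0.32, adjusted p = 0.0822).

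Per kilobase of exon, which allows genes to be compared, the summed Tet level was 8.52 ± 0.822 CPM per kilobase in naive, 4.26 ± 0.747 in CD45RBhi and 3.79 ± 0.329 in CD45RBlo cells (SD). Tet2 and Tet3 were about level in naive cells, with 41.7% ± 1.84 and 44.2% ± 4.81 of that sum, and Tet1 had 14.1% ± 2.97. In memory Tet2 held 64.8% ± 5.19 (CD45RBhi) and 64.4% ± 6.71 (CD45RBlo), Tet3 31.3% ± 6.32 and 32.8% ± 7.49, and Tet1 3.87% ± 1.32 and 2.80% ± 0.884. The smaller sum in memory was thus mostly Tet2, by transcript per length. With the longest transcript as the length, Tet1, Tet2 and Tet3 averaged 1.30, 6.54 and 5.75 CPM per kilobase in naive cells.

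**Figure D2:**
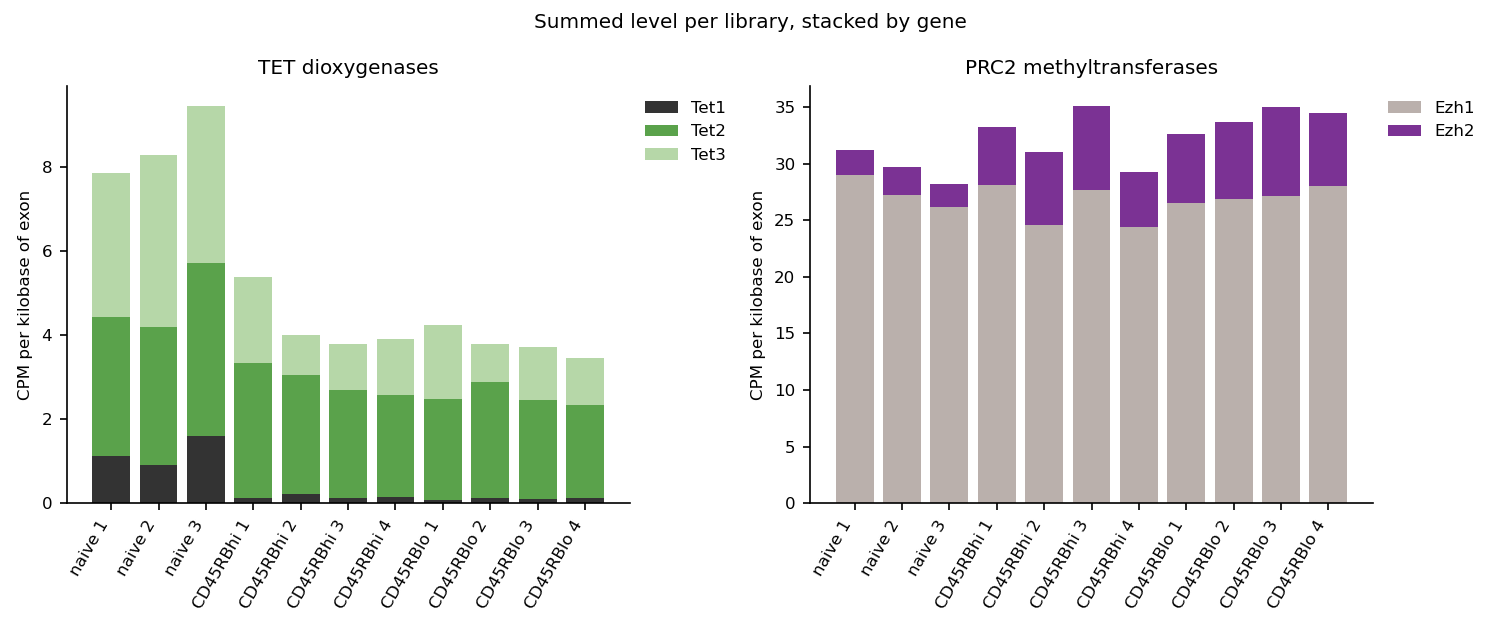
Summed level in CPM per kilobase of exon (vertical axis) in each of the 11 libraries (horizontal axis), stacked by gene, for the Tet genes (left) and for Ezh1 and Ezh2 (right). The Tet stack is 7.86 to 9.44 in naive and 3.44 to 5.38 in memory libraries, and the Ezh2 share of the right stack goes from 6.86 to 8.09% in naive to 15.5 to 22.4% in memory libraries.

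The catalytic subunits of PRC2 went separate ways. Ezh2 (ENSMUSG00000029687, chr6:47530139-47595341, minus strand) was at 14.3, 16.0 and 13.4 CPM in naive libraries. It was at 34.5, 42.8, 49.7 and 33.0 CPM in CD45RBhi and at 41.0, 45.3, 52.3 and 43.2 CPM in CD45RBlo libraries. The lowest memory library was above the highest naive one by more than the width of the naive range. Ezh2 rose 2.74-fold in CD45RBhi (log2 1.46 ± 0.156, adjusted p = 9.4e-06) and 3.12-fold in CD45RBlo cells (1.64 ± 0.157, adjusted p = 2.96e-06).

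Ezh1 (ENSMUSG00000006920, chr11:101191115-101226463, minus strand) was at 216, 203 and 195 CPM in naive libraries. It was at 209, 183, 206 and 181 CPM in CD45RBhi and at 197, 200.1, 202 and 209 CPM in CD45RBlo libraries, and the 3 groups overlapped. The log2 fold changes were -0.07 (95% interval -0.24 to 0.09, adjusted p = 0.489) in CD45RBhi and -0.02 (-0.19 to 0.15, adjusted p = 0.867) in CD45RBlo cells, so a change of the size seen for Ezh2 lies outside both intervals. Per kilobase, Ezh1 exceeded Ezh2 12.7 ± 1.15 times in naive cells, 4.48 ± 0.841 times in CD45RBhi and 4.02 ± 0.404 times in CD45RBlo cells. The Ezh2 share of the pair was 7.36% ± 0.642 in naive, 18.6% ± 2.80 in CD45RBhi and 20.02% ± 1.69 in CD45RBlo cells. Ezh1 thus stayed the more abundant transcript in every library. With the longest transcript as the length, Ezh1 and Ezh2 averaged 48.6 and 5.23 CPM per kilobase in naive cells. They averaged 46.3 and 14.4 in CD45RBhi and 48.0 and 16.3 in CD45RBlo cells. The size of the ratio and of the share therefore depends on the length used.

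Suz12, the core subunit (ENSMUSG00000017548, chr11:79993106-80034123, plus strand), was at 97.0, 108 and 90.0 CPM in naive libraries. It was at 87.1, 68.0, 71.7 and 93.2 CPM in CD45RBhi and at 92.1, 75.2, 84.2 and 98.7 CPM in CD45RBlo libraries, and the groups overlapped. Its log2 fold changes, -0.30 ± 0.129 (adjusted p = 0.0806) in CD45RBhi and -0.17 ± 0.129 (adjusted p = 0.324) in CD45RBlo cells, did not pass. Without CD45RBhi library 4 the CD45RBhi difference passed at -0.38 (adjusted p = 0.0389).

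**Figure D3:**
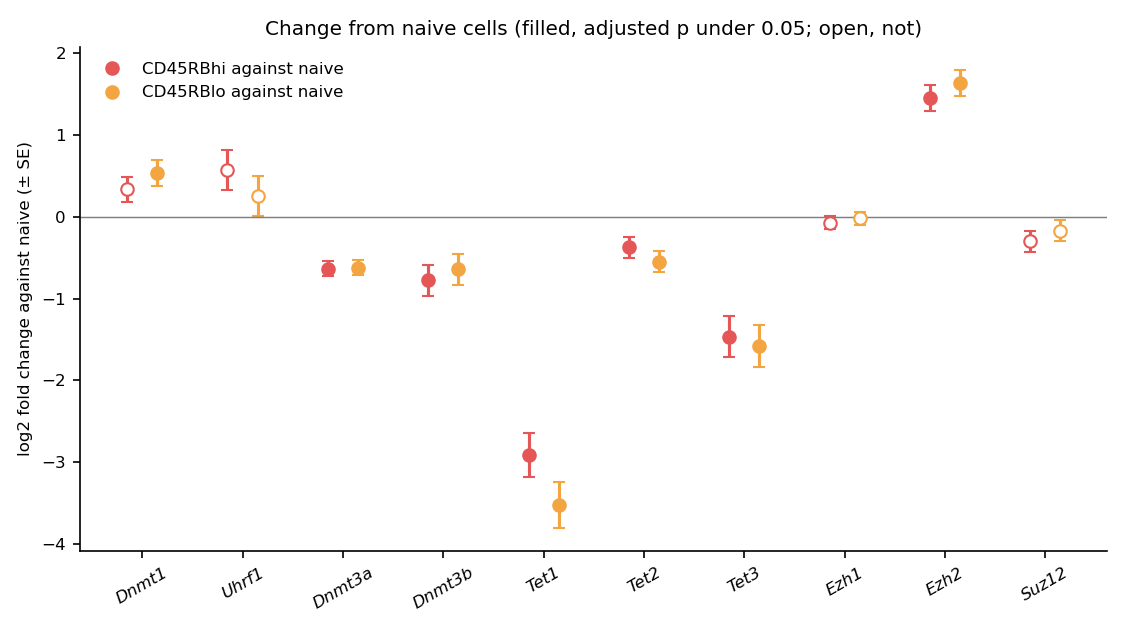
Log2 fold change from naive cells with its SE (vertical axis) for the 10 genes (horizontal axis) in CD45RBhi and CD45RBlo cells. Filled points passed the test and open points did not. Tet1 lies at -2.91 and -3.52, Ezh2 at 1.46 and 1.64, and Ezh1 at -0.07 and -0.02.

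Scaling bears on the small differences. With library size alone in place of TMM, the median log2 fold change of all genes moved from -0.01 to -0.16 in CD45RBhi and to -0.14 in CD45RBlo cells. The CD45RBhi calls then split into 2301 higher and 3724 lower instead of 3064 and 2630, and the CD45RBlo calls into 2356 and 3609 instead of 3072 and 2722. Under that scaling Ezh1 (-0.22, adjusted p = 0.0302) and Suz12 (-0.45, adjusted p = 0.00932) were called lower in CD45RBhi cells. No call on the 10 genes was lost and none changed direction under it.

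Length is shared by several of the genes that fell. Dnmt3a, Tet1, Tet2 and Tet3 have 15.5 to 16.9 kilobases of annotated exon, and of the 300 tested genes with 15 kilobases or more, 13.7% were higher and 25.7% lower in CD45RBhi than in naive cells. The median log2 fold change of those 300 was -0.16 in CD45RBhi and -0.12 in CD45RBlo cells. Of the 13414 tested genes under 15 kilobases, 22.5% were higher and 19.0% lower in CD45RBhi cells. The other gene called lower in both memory groups, Dnmt3b, has 5.11 kilobases. The part of length in these results was not tested. Exons of Suz12, Ezh2, Dnmt3a and Tet2 overlap annotated antisense or other genes over 3.60%, 2.61%, 0.799% and 0.255% of their length, and without stated strandedness reads there cannot be told apart.

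By level per kilobase in naive cells, Dnmt1 (31.1 ± 2.52 CPM per kilobase), Ezh1 (27.5 ± 1.44) and Suz12 (19.9 ± 1.87) stood above the other 7. The ranges of Dnmt1 (28.3 to 33.1) and Ezh1 (26.2 to 29.0) overlapped, so that their order is not resolved, and with the longest transcript as the length Ezh1 ranked above Dnmt1. The other 7 ran from 4.22 ± 0.130 for Uhrf1 down through Dnmt3a (3.85), Tet3 (3.75), Tet2 (3.56), Dnmt3b (3.13) and Ezh2 (2.18) to 1.21 ± 0.351 for Tet1. Neighbours among Tet3, Tet2 and Dnmt3a overlapped in naive libraries. In CD45RBlo cells Ezh2 (6.81 ± 0.734) had passed all of Uhrf1, Dnmt3a, Tet3, Tet2 and Dnmt3b in the means, though its range overlapped that of Uhrf1, and Tet1 (0.104 ± 0.0280) remained the lowest. The order from Uhrf1 downwards depends on the length used, since Uhrf1 ranked below Dnmt3a, Tet2, Tet3 and Ezh2 in naive cells with the longest transcript. The ratio of Dnmt1 to Dnmt3a per kilobase was 8.08 ± 0.661 in naive, 15.9 ± 2.82 in CD45RBhi and 17.9 ± 1.62 in CD45RBlo cells. Its size also depends on the length, as Dnmt1 and Dnmt3a averaged 39.1 and 6.61 in naive cells with the longest transcript.

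Promoter sequences were read next, because Ezh2, Dnmt1 and Uhrf1 are textbook targets of E2F factors, which drive replication genes. The motif TTTNNCGC was searched on both strands in RefSeq windows of 300 bases (GRCm38.p6, 250 before to 50 after an annotated start), and all 10 genes matched by symbol. It occurs in 5.17% of all 32851 windows, in 5.93% of the 27025 genes with a window and in 9 of the 22 cell cycle genes with a window. These shares make no allowance for CpG content or for genes with several windows. Among the 10 genes the motif lay in windows of Ezh2, Dnmt1, Uhrf1 and Suz12. Its letters are not in the windows of Dnmt3a, Dnmt3b, Tet1, Tet2, Tet3 or Ezh1. The 30 bases around each match are shown 5′ to 3′ on the gene's strand, with the matched bases in capitals. These stretches are shown because they hold every match found among the 10 genes.
Ezh2, chr6:47595009-47595038, 3 bases after the start: gggttgctgcgTTTGGCGCtcggtccggtc
Dnmt1, chr9:20952574-20952603, 33 bases after the start: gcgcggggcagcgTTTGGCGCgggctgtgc
Dnmt1, chr9:20952824-20952853, 219 bases before the same start, 2 overlapping matches on the other strand: ggtttccgcgcGCGCGAAAAAgccggggtc
Uhrf1, chr17:56303270-56303299, 56 bases before the start: gccccacttgcTTTCTCGCttcccgccaca
Uhrf1, chr17:56304117-56304146, 185 bases before another start: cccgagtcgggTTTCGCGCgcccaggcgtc
Suz12, chr11:79992876-79992905, 219 bases before the start: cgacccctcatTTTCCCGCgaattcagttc

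Ezh2 and Dnmt1 hold the same 8 letters TTTGGCGC just after a start. How the motif relates to the direction of change was not tested. All windows of Tet1, Tet2, Tet3, Dnmt3a and Ezh2 lie inside the gene spans given above, so the 5′ ends of those spans were not searched. The 88 bases before the RefSeq start in the single window of Tet1, in all lower case because they hold no match, are given here.
Tet1, chr10:62887325-62887412: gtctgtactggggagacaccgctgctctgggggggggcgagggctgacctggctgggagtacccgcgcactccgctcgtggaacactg
CpG dinucleotides were counted in the same windows, where the median over all windows is 7. Tet2 had 57, Suz12 41, Ezh2 31, Dnmt3b 30, Ezh1 23, Tet3 22 and Tet1 17, each in a single window. The windows of genes with several starts had 2, 12 and 33 (Dnmt1), 12 and 33 (Uhrf1) and 46, 47 and 18 (Dnmt3a), so that all but 1 Dnmt1 window were above the median.

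The memory groups differed little from each other in these genes. None of the 10 passed between CD45RBhi and CD45RBlo cells, where 0.124% of all genes did, and the ranges of all 10 overlapped, against no overlap for 4.99% of all genes. Their median log2 difference was -0.03. Without adjustment only Tet1 reached p under 0.05 with edgeR, where 9.0% of all genes did (1236 of 13735), and 1 of the 10 did with DESeq2, where 5.96% did. Same-numbered CD45RBhi and CD45RBlo libraries vary together, so a second fit blocked on the replicate number. It called 707 of 12637 genes (5.59%) and again none of the 10, with 3 of the 10 at an unadjusted p under 0.05 against 21.5% of all genes.

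Tet1 was the higher in CD45RBhi in all 4 pairs, by log2 ratios of 0.88, 0.72, 0.36 and 0.40 for numbers 1 to 4. The paired difference was 0.62 ± 0.268 (95% interval 0.04 to 1.20, adjusted p = 0.206). Ezh2 was the lower in CD45RBhi in all 4 pairs, by -0.25, -0.08, -0.07 and -0.39, with a paired difference of -0.19 ± 0.0820 (-0.37 to -0.02, adjusted p = 0.194). Dnmt1 was lower in 3 of 4 pairs (-0.29, -0.40, 0.04 and -0.16), with a difference of -0.20 ± 0.0672 (-0.35 to -0.06, adjusted p = 0.0982). These 3 had the smallest unadjusted p of the 10 in that fit, 0.0394, 0.0350 and 0.00994, and none passed adjustment.

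Uhrf1 had ratios of 0.02, -0.13, 0.51 and 0.69, and a paired difference of 0.28 ± 0.131 (-0.00 to 0.57, adjusted p = 0.234). Uhrf1 and Dnmt1, which act together, thus had differences of opposite sign between the memory groups, and neither passed. Tet2 was higher in CD45RBhi in 4 of 4 pairs (0.17, adjusted p = 0.252) and Suz12 lower in 4 of 4 (-0.13, adjusted p = 0.247). In all, 4 of the 10 kept 1 direction over the 4 pairs, where 27.7% of all genes did. For Dnmt3a the paired interval ran from -0.17 to 0.15, for Ezh1 from -0.19 to 0.08, for Tet3 from -0.13 to 0.34, and for Dnmt3b, the widest of these, from -0.51 to 0.28. A difference between the memory groups as large as the fall of Dnmt3a from naive lies outside the interval for Dnmt3a. No adjusted p of the 10 genes was under the threshold in any of 17 alternative settings.

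**Figure D4:**
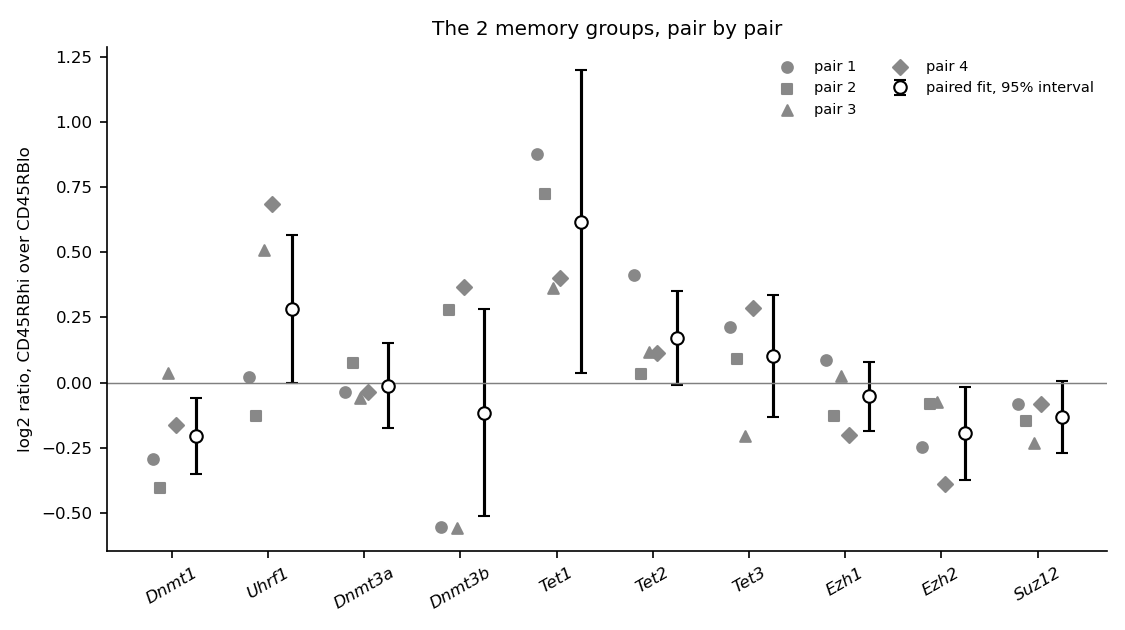
Log2 ratio of CD45RBhi over CD45RBlo CPM (vertical axis) for the 10 genes (horizontal axis). Grey marks are the 4 same-numbered pairs, and the open circle with its bar is the paired fit with its 95% interval. Tet1 lies above 0 and Ezh2 below 0 in all 4 pairs, while Dnmt3b ranges from -0.56 to 0.37.

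The other genes of these pathways were read from 7 lists, whose counts stand against the 41.5% (CD45RBhi) and 42.2% (CD45RBlo) of all tested genes called against naive and the 5.59% called in the paired fit. Among 14 tested partners of the DNA methyltransferases, 5 were higher and 2 lower in CD45RBhi than in naive cells, and 4 were higher and 2 lower in CD45RBlo cells. Lig1, the ligase that seals newly copied DNA, rose from 20.9 ± 2.70 to 38.4 ± 7.11 CPM in CD45RBhi (log2 0.88, adjusted p = 0.000567) and to 35.5 ± 3.38 in CD45RBlo cells (0.76, adjusted p = 0.00146). Hells, a remodelling helicase that helps methylation, rose by 1.00 in CD45RBhi cells (adjusted p = 0.00854), and its 0.66 in CD45RBlo cells did not pass (adjusted p = 0.0589). Ahcy, which clears the by-product of methyl transfer, rose by 0.50 and 0.43 (adjusted p = 0.00196 and 0.00539). Pcna, the sliding clamp that also binds Dnmt1, rose by 0.32 (adjusted p = 0.00462) and 0.21 (adjusted p = 0.0403), and both calls were lost when library size alone set the scale. The others called, named after their values were seen, were Uhrf2, the paralog of Uhrf1, higher by 0.33 and 0.39, Setdb1 at -0.60 and -0.43, Ehmt1 at -0.31 in CD45RBhi cells and Cdca7 at -0.36 in CD45RBlo cells. Each of these 4 lost a call in 2 or more settings. The list's median was 0.01 in CD45RBhi and 0.11 in CD45RBlo cells.

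Of 10 readers of methylated CpG, 2 were higher and 3 lower in CD45RBhi cells, and 2 higher and 1 lower in CD45RBlo cells. Zbtb38 rose from 49.4 ± 6.84 CPM to 117 ± 12.6 and 114 ± 13.7 CPM (log2 1.24 and 1.21, adjusted p = 6.38e-06 and 7.56e-06). Mbd2 rose by 0.45 and 0.47 (adjusted p = 0.000192 and 0.000136). Zbtb4, of the same family as Zbtb38, fell by 0.78 and 0.51 on the log2 scale (adjusted p = 0.00215 and 0.0253), and the CD45RBlo call was lost without naive library 1, naive library 2 or CD45RBlo library 3. Mbd5 (-0.61) and Mbd6 (-0.64) were called lower in CD45RBhi cells, and these calls held in 5 and 4 of 12 alternative settings. Members of this list thus moved both ways, and its 5 and 3 calls among 10 genes lie near the share of all genes called.

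Of 16 tested genes that work with or after the Tet enzymes, 4 were higher and 6 lower in CD45RBhi cells, and 3 higher and 7 lower in CD45RBlo cells. Cxxc5, a zinc finger protein that binds CpG DNA and Tet2, averaged 67.9 ± 8.98 CPM over the naive libraries, and 1.34 ± 0.563 and 1.40 ± 0.225 CPM over the CD45RBhi and CD45RBlo ones. It was 50.5-fold and 48.2-fold lower (log2 -5.66 and -5.59, adjusted p = 3.7e-09 and 3.74e-09). Idh2, the mitochondrial enzyme that makes the Tet cofactor 2-oxoglutarate, fell from 146 ± 2.69 to 36.4 ± 4.63 and 41.2 ± 3.95 CPM (log2 -2.01 and -1.83, adjusted p = 2.1e-08 and 4.49e-08). Idh1, its counterpart in the cytosol, was named after its values were seen and rose by 0.45 and 0.74 (adjusted p = 0.0136 and 0.000551), with the CD45RBhi call lost without naive library 2 and with library size alone. Apex1, the base excision endonuclease, fell by 1.27 and 1.82 (adjusted p = 0.000879 and 5.29e-05). Gadd45b, a stress gene tied to demethylation, rose by 1.39 and 1.82 (adjusted p = 9.94e-05 and 9.25e-06). Tdg, the glycosylase that excises oxidised methylcytosine, was named after its values were seen and fell by 0.52 and 0.56, with the CD45RBhi call lost without naive library 2.

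Of 9 other PRC2 subunits in the table, 2 were higher and 1 lower in CD45RBhi cells, and 3 were higher and none lower in CD45RBlo cells. Phf19, an accessory subunit that guides PRC2 to chromatin, averaged 0.881 ± 0.182 CPM over the naive libraries, and 3.85 ± 1.03 and 4.24 ± 0.809 CPM over the CD45RBhi and CD45RBlo ones (log2 2.12 and 2.26, adjusted p = 0.000128 and 6.85e-05). Eed, the core subunit that reads the mark, rose by 0.37 and 0.30 (adjusted p = 0.00766 and 0.0222), and neither call held with library size alone. Jarid2, which recruits PRC2, fell by 0.73 in CD45RBhi cells (adjusted p = 0.0115), a call lost without naive library 2, and was at -0.49 in CD45RBlo cells (adjusted p = 0.0736). Rbbp4, a histone binding subunit, was at 0.18 and 0.13 and did not pass (adjusted p = 0.0910 and 0.207).

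Polycomb repressive complex 1 (PRC1) reads the PRC2 mark and ubiquitinates histone H2A. Of 23 tested subunits, 1 was higher and 6 lower in CD45RBhi cells, and 1 higher and 7 lower in CD45RBlo cells. Scmh1, a relative of the fly protein sex comb on midleg, fell from 36.5 ± 2.89 to 4.51 ± 1.74 and 3.79 ± 1.16 CPM (log2 -3.01 and -3.26, adjusted p = 3.47e-06 and 1.76e-06). Cbx2, a reader of the mark, fell by 1.35 and 1.73 (adjusted p = 4.93e-05 and 5.58e-06). Scml4, a relative of Scmh1, fell by 0.91 and 1.03, and Pcgf5, a ring finger subunit, by 0.94 and 0.95. Pcgf2, another ring finger subunit and the only subunit called higher, is named here after its values were seen. It was at 0.169 ± 0.218 CPM in naive cells, where 1 library had 0 counts, and at 2.06 ± 0.608 and 2.16 ± 0.559 CPM in memory cells (adjusted p = 0.000731 and 0.000595).

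Of 11 enzymes and cofactors that oppose Polycomb, 2 were lower and none higher in each memory group. Kdm6b, which removes the PRC2 mark, was 2.16-fold lower in CD45RBhi and 1.97-fold lower in CD45RBlo cells (log2 -1.11 and -0.98, adjusted p = 0.00282 and 0.00623). Kmt2c, a methyltransferase of enhancers, fell by 0.61 and 0.66 (adjusted p = 0.00856 and 0.00498). In the paired fit Kmt2b, a methyltransferase of promoters, was the only gene of these 6 lists that passed between the memory groups, lower in CD45RBhi by 0.50 on the log2 scale (adjusted p = 0.0240, lower in 4 of 4 pairs). That call was lost without pair 2, 3 or 4.

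**Figure D5:**
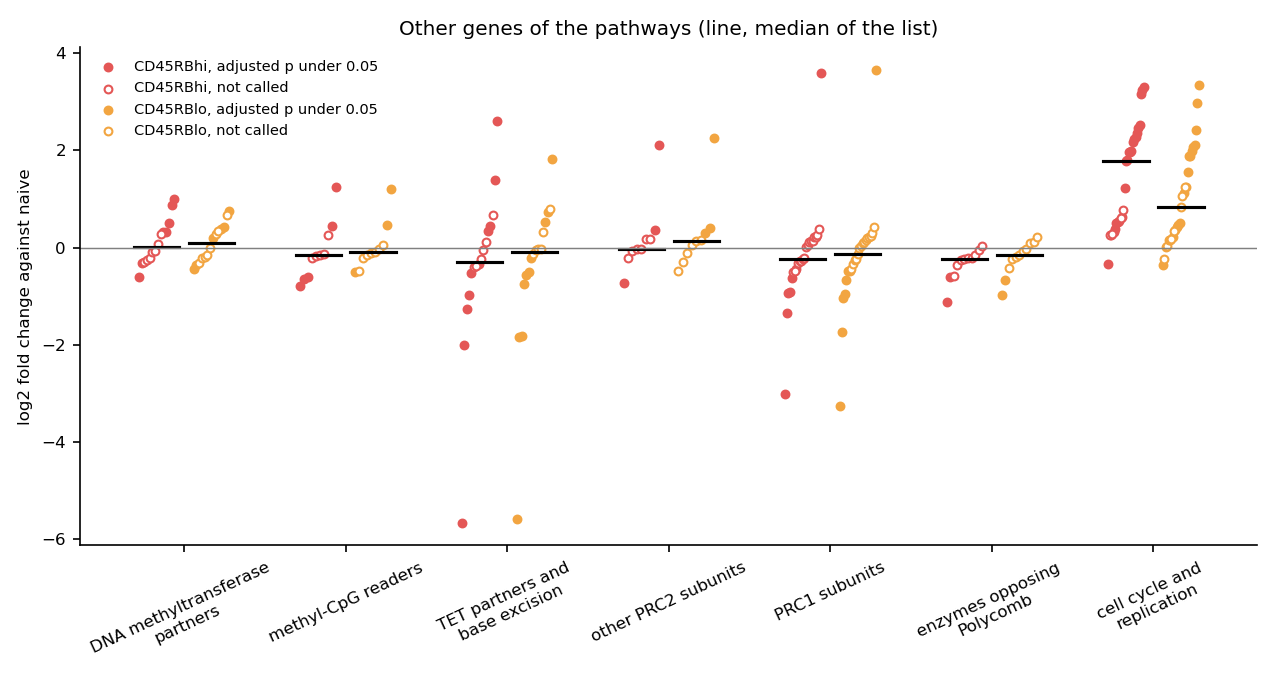
Log2 fold change from naive cells (vertical axis) of the tested genes in 7 lists (horizontal axis), for CD45RBhi and CD45RBlo cells. Each point is 1 gene, filled where the adjusted p was under 0.05, and the line is the median of the list. The cell cycle list has medians of 1.79 and 0.83, and the lowest point is Cxxc5 at -5.66.

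Cell cycle genes were read beside the 10 because Dnmt1, Uhrf1 and Ezh2 are known to be higher in dividing cells. Of 27, 22 were higher and 1 lower in CD45RBhi than in naive cells, with a median log2 fold change of 1.79, and 16 were higher and 1 lower in CD45RBlo cells, with a median of 0.83. Tyms, which makes thymidylate, rose from 6.91 to 32.8 and 29.2 CPM, and Rrm2, a ribonucleotide reductase subunit, from 4.96 to 27.5 and 18.4 CPM. Mcm7 was the gene called lower (-0.33 and -0.36, adjusted p = 0.00459 and 0.00227). Summed over the list, naive libraries had 1154 to 1231 CPM, CD45RBhi 1545 to 1819 and CD45RBlo 1420 to 1572. In the paired fit 7 of the 27 were higher in CD45RBhi than in CD45RBlo cells and none lower, namely Ccna2, Ccnb1, Ccnb2, Birc5, Aurkb, Cdc6 (2.21, adjusted p = 0.0100) and Rrm2 (0.56, adjusted p = 0.0176). The fit without pairing called none of the 27, and DESeq2 without pairing called 1, Cdc6. Without pair 3 or pair 4 the paired fit called 1 of the 27, and Ccnb1 was called in 1 and Aurkb in 2 of 17 alternative settings, the paired fit included. Of the 3 genes named above, Uhrf1 had a paired difference in the same direction, 0.28. Ezh2 and Dnmt1 had differences in the other direction, -0.19 and -0.20. None of these 3 passed. The part of the cell cycle in the levels of the 10 genes was not tested.

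Patterns over the 11 libraries were compared by Pearson's r of log2 CPM among 8402 genes averaging at least 10 CPM. The naive and memory libraries form separate clusters, so r mostly restates that split and is given as a description. The genes most like Tet1 were Mrps18b, Lef1 and Pdk1 (r = 0.989, 0.989 and 0.988). Those most like Ezh2 were H2-Q6, Spryd3 and Acsbg1 (0.991, 0.989 and 0.988). Those most like Tet3 were Slc43a2, Tspan9 and Dusp10 (0.987, 0.984 and 0.981), and those most like Dnmt3a were Ets2, Plcb2 and Il21r (0.989, 0.988 and 0.986). Dnmt1 was closest to Phf8, Peg13 and Dock2 (0.979, 0.978 and 0.976). Dnmt3b and Tet2 had looser matches, Pold4, Rasal1 and Ankrd49 (0.968, 0.938 and 0.914) and Kcnq1ot1, 4632427E13Rik and Arhgap15 (0.935, 0.928 and 0.925).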

How the data were processed

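RNA was sequenced from 3 naive, 4 CD45RBhi and 4 CD45RBlo libraries. Per the labels' notes and the values, the authors' deposited table holds raw read counts for each Ensembl gene, not normalized. The submitters' processing notes name SAMtools, featureCounts, DESeq2, mm10 and GRCm38. Not given in the sources used here are aligner, annotation release and strandedness. Genes were filtered with edgeR 4.0.16 (filterByExpr, minimum count 10), scaled by TMM, and tested in R 4.3.3 by the quasi-likelihood F test, two-sided, in 1 fit of all 11 libraries without covariates, and p-values were adjusted by Benjamini-Hochberg (threshold 0.05). The fit was also run on simulated counts with the same spread set for every gene, and no result here rests on that run. DESeq2 1.42.0 was an alternative. No 2 libraries were identical.

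Across genes, a CD45RBhi library's deviation from its group mean correlated at 0.191 to 0.452 with that of the CD45RBlo library of the same number, and at most at 0.0284 with those of other numbers. Memory libraries of 1 number were therefore taken as pairs on the evidence of the data, since no label states it. In the pair ratios 0.1 CPM was added to each level.

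Positions and lengths came from GENCODE M21 (GRCm38) and promoters from RefSeq (GRCm38.p6). Lengths are those of all annotated exons joined, unless the longest transcript is named. Levels, shares and ratios per kilobase depend on that choice, and their SDs hold only the spread among libraries. The 10 genes and the lists were chosen with earlier results of these data known. Named were the 10 genes, up to 4 tested genes per list by p for CD45RBhi against naive, up to 2 by p in the paired fit, and the 3 genes most like each called member. Figures were drawn with matplotlib 3.10.9.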

Additional observations from a re-analysis of the deposited data

How the results depend on the processing

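The 3-count limit of 0.130 to 0.166 CPM lies under every level of the 10 genes, the lowest being Tet1 at 1.02 CPM, and 3 or 4 libraries a group limit the precision. Tet1, Tet3, Dnmt3a and Ezh2 kept their direction and their calls against naive in all 12 alternatives of both comparisons. Of 240 values of the 10 genes against naive, 228 kept their call or lack of one, 5 gained a call and 7 lost it. No called value reversed. Uncalled values could change sign, as for Ezh1 in CD45RBlo cells (-0.15 to 0.02 over the settings). The number of the 10 called stayed between 5 and 8 for CD45RBhi and 6 and 7 for CD45RBlo cells. The naive and memory libraries share only a number: with a replicate block, calls of all genes fell from 5694 to 3736 for CD45RBhi and from 5794 to 4483 for CD45RBlo cells, and the calls of Tet2 in CD45RBhi (-0.31, adjusted p = 0.217) and Dnmt3b in CD45RBlo (-0.52, adjusted p = 0.0650) were lost. Between the memory groups 17 genes were called, 144 with DESeq2, 4 with only those groups in the fit and 707 with the replicate block. Leaving out 1 library gave 6 to 15, with 6 without CD45RBhi library 3 or 4, 9 without CD45RBlo library 1 and 7 without CD45RBlo library 3 or 4. Leaving out 1 pair under the block, added after seeing the data, gave 344, 667, 167 and 300 without numbers 1 to 4. No replicate block called any of the 10 genes there. The cause of these differences was not tested. Between the memory groups, the sign of Dnmt3a, Dnmt3b and Tet3, never called, changed between settings (-0.05 to 0.03, -0.27 to 0.03 and -0.15 to 0.32).
Of the values of the list genes, 4265 kept their call or lack of one, 78 gained a call, 162 lost it and no called one reversed. Some uncalled ones changed sign, as for Bmi1 between the memory groups (-0.06 to 0.08 over the settings).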
